A study of Mus musculus with 14 samples.

Results

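The 10 genes described here encode transcription factors that many kinds of neuron switch on as they leave the cell cycle: *Onecut1*, *Onecut2*, *Ebf1*, *Ebf2*, *Ebf3*, *Myt1*, *Myt1l*, *Insm1*, *Nhlh1* and *Nhlh2*. They were taken by symbol, through their RefSeq identifiers, and all 10 were found among the 23152 loci of the RNA-seq tables. For each of them the expression value in every RNA-seq library and the TAF9B and RNA polymerase II (POL2) peaks within 50 kb of its start are given. All samples are labelled as mouse, C57BL/6 background.

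TAF9B is a paralog of the TFIID and SAGA subunit TAF9, and the study asked what its loss does to neuronal genes. Mouse embryonic stem (ES) cells, wild type (WT, JM8 clone) or labelled TAF9B -/- (KO, Taf9b_BG10 clone), were sequenced undifferentiated and as embryoid bodies (EBs) after 2, 4 and 6 days with retinoic acid and the smoothened agonist SAG, which drives cells toward motor neurons. Newborn spinal column was sequenced from WT and KO mice, the latter raised from the KO ES cells, and newborn spinal cord from WT mice. TAF9B and POL2 chromatin immunoprecipitation (ChIP-seq) used a separate WT line, HBG3, differentiated into motor neuron EBs for 8 days. Each condition is 1 library, so no value has a replicate error and no difference within a stage or tissue could be tested. Differences pooled over the culture stages were not tested. The KO is 1 clone, which carries *LacZ-Neo* in place of all coding exons of *Taf9b*, and the number of animals behind each tissue library is not given in the sources used here.

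The libraries were checked against their labels first. *Taf9b* (NM_001001176) measured 0.537 FPKM (fragments per kilobase of transcript, scaled to library size) in WT-labelled ES cells and 3.06 FPKM in KO-labelled ES cells. At day 2 it was at 0.516 and 4.08 FPKM, at day 4 at 1.96 and 4.27 FPKM, and at day 6 at 1.37 and 4.01 FPKM. In all 4 culture pairs, therefore, the targeted gene was higher in the library labelled KO, against the label, and every direction below refers to the labels alone. In spinal column the order followed the labels, with 6.65 FPKM in the library labelled WT and 3.31 FPKM, or 49.8% of it, in the library labelled KO. No library labelled KO was thus near 0. The tables give 1 value per locus, so reads from exons outside the deletion cannot be told apart from the rest. WT spinal cord held 7.44 FPKM. By qRT-PCR and western blot, the study detected *Taf9b* induction in WT EBs and not in KO EBs. Its qRT-PCR also showed lower motor neuron markers and a weaker fall of *Pou5f1* and *Nanog* in KO EBs. The source of the *Taf9b* values in the KO-labelled libraries was not tested. Both ES cell libraries had all 6 pluripotency markers above 1 FPKM (summed level 1829 FPKM in WT, 1832 in KO-labelled). WT EBs held 30.5 FPKM of them at day 4 and, against the order of the days, 360 FPKM at day 6.

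As background, these factors act between the proneural genes, which commit a progenitor to a neuronal fate, and the genes of the mature neuron. ONECUT proteins bind DNA through a cut domain and a homeodomain. The EBF (COE) proteins dimerize through a helix-loop-helix region and are known in newborn neurons as well as in B cells and fat cells. MYT1 and MYT1L are zinc finger proteins, MYT1L being known for repressing genes of other lineages. INSM1 is a zinc finger repressor of neuronal and neuroendocrine precursors, and NHLH1 and NHLH2 are basic helix-loop-helix proteins of young neurons.

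The DNA just before the start was searched for letters that factors of these families bind. In the 300 bases before the outermost start in the GENCODE vM1 annotation (build mm9), the letters ATCAAT, the core bound by ONECUT proteins, were searched on both strands. They stood in 4 of the 10 windows, those of *Nhlh1*, *Nhlh2*, *Myt1* and *Myt1l*, against 7.22% of 18644 windows of all genes. These are also the 4 members with the lowest ratios between the day 6 libraries, a match that was seen only after the values were known and that depends on *Myt1l*. Its log2 ratio of -3.71 rests on values below 1 FPKM and lies next to the -3.70 of *Ebf3*, and with 0.1 FPKM added the values are -1.43 and -3.51. The windows differ in base composition: those of *Nhlh1*, *Nhlh2*, *Myt1* and *Myt1l* held 60.0%, 41.7%, 54.3% and 37.3% G and C, and the other 6 held 54.0% to 77.7%. The part of base composition in this count was not tested. The 4 windows are shown 5′ to 3′ on the strand of the gene, at chr1:173987728-173988027 (minus strand), chr3:101813768-101814067 (plus), chr2:181497737-181498036 (plus) and chr12:30212949-30213248 (plus). Capitals mark ATCAAT or its other strand ATTGAT, the E-box letters CAGATG or CATCTG and, in *Myt1*, AAGTTT, the letters bound by MYT1.
Nhlh1, before the start: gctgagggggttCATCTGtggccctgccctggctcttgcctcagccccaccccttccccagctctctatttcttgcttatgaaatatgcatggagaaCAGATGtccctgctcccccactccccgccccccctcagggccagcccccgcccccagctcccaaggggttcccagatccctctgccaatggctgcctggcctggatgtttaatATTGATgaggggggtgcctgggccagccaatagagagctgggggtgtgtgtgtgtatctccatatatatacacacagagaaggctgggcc
Nhlh2, before the start: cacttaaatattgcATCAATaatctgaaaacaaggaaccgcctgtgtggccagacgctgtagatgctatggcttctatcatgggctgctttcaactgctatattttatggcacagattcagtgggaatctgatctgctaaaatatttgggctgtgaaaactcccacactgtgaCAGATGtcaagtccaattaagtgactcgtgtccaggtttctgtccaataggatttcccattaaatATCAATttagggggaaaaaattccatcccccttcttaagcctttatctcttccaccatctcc
Myt1, before the start: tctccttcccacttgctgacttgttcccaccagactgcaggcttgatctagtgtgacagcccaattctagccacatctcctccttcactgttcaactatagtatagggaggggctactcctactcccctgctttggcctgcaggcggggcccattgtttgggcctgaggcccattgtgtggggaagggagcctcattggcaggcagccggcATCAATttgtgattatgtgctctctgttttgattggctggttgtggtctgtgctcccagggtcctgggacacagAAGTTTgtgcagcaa
Myt1l, before the start: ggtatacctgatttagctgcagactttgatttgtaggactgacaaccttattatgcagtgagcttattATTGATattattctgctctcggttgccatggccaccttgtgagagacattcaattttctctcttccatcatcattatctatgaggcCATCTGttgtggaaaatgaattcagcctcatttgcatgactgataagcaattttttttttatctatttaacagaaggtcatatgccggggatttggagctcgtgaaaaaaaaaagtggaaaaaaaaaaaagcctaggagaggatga
The copy of ATCAAT or ATTGAT nearest to the start begins 90 bases before it in *Nhlh1*, 62 in *Nhlh2*, 89 in *Myt1* and 232 in *Myt1l*. *Nhlh2* holds 2 copies. CAGATG or CATCTG was found before 3 members, against 15.1% of all windows, and AAGTTT or AAACTT before 1, against 14.9%. CAGCTG and the EBF letters, TCCC with GGGA 2 bases on, were in none of the members' windows, against 14.1% and 0.976% of all. A match of letters is a description of the sequence and not a binding site.

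In WT cultures most members were low at first and higher at day 6, with *Ebf1* lower at day 4 than before and *Onecut1* lower at day 6 than at day 4. Their summed FPKM was 4.62 for ES cells, 3.22 on day 2, 13.4 on day 4 and 78.5 on day 6. Between days 2 and 4 all 4 members that were above 1 FPKM in either library were more than 2-fold higher, against 15.7% of all such genes (13.7% were lower), and the median log2 ratio of the 10 was 3.42 against 0.09 for all genes. Between days 4 and 6, 6 of 8 were more than 2-fold higher, against 17.0% of all genes (9.97% were lower), with medians of 2.82 and 0.10. A member that passes the limit only through the later library, where it is high, had to differ: of members above 1 FPKM in both libraries, 1 of 1 was higher in the first of these steps and 2 of 3 in the second. The tables were normalized separately in WT and KO pairs, and the day 4 library is shared by both steps. From ES cells to day 2 none of the 2 members above 1 FPKM passed 2-fold in either direction, against 5.27% of genes higher and 7.96% lower.

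**Figure D1:**
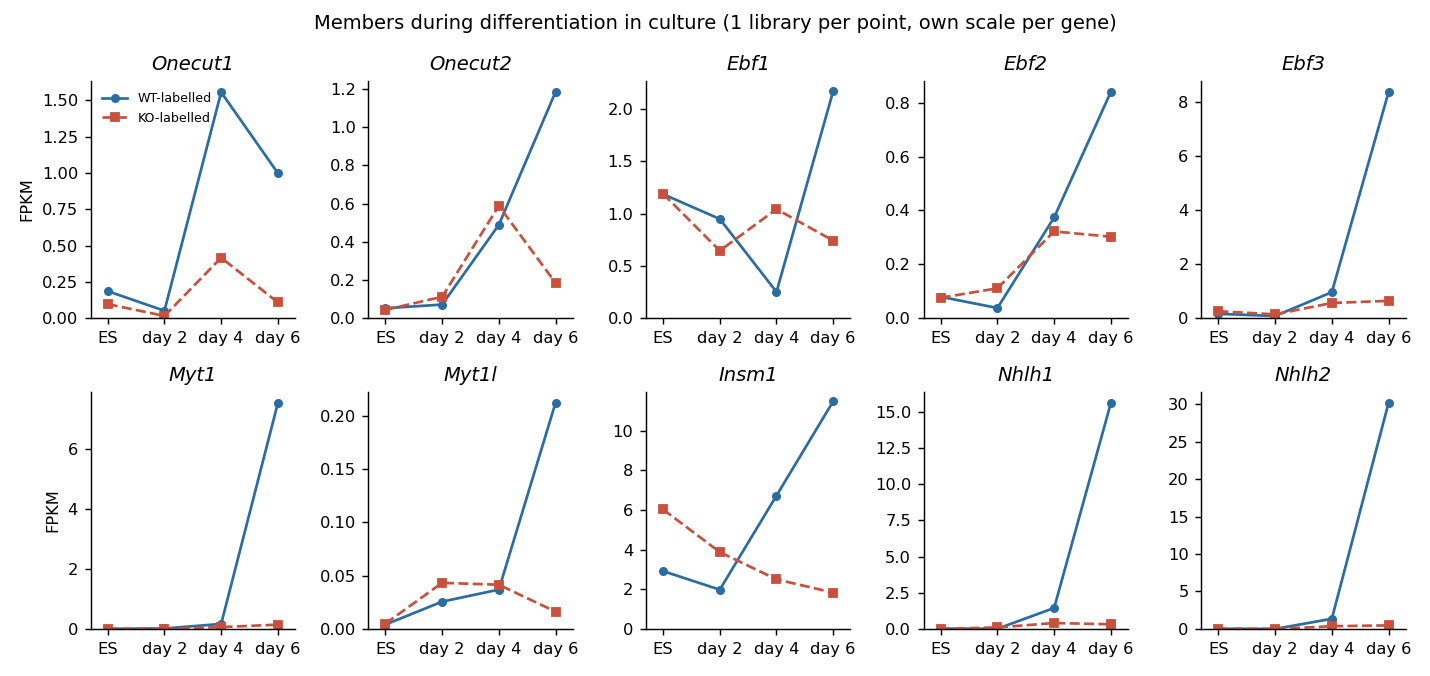
FPKM of each member (vertical axis, own scale per gene) in ES cells and EBs at days 2, 4 and 6, with circles and solid lines for the libraries labelled WT and squares and dashed lines for those labelled KO, 1 library per point. At day 6 every WT point lies above its KO point, by 64.0-fold for *Nhlh2* and 2.78-fold for *Ebf2*.

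In the libraries labelled KO the summed level was lower at day 6 than in ES cells through *Insm1*, which went from 6.03 to 1.83 FPKM. The median level of the 10 was higher, at 0.0597 FPKM in ES cells and 0.310 FPKM at day 6. The members summed to 7.71 FPKM for ES cells, 5.05 on day 2, 6.30 on day 4 and 4.76 on day 6. In each of the 3 steps 2 members, *Ebf1* and *Insm1*, were above 1 FPKM, and none passed 2-fold. Of all genes, 6.01% were more than 2-fold higher and 8.38% lower from ES cells to day 2, 15.4% and 7.74% from day 2 to 4, and 12.4% and 11.1% from day 4 to 6. Without that limit 7 members were more than 2-fold higher from day 2 to 4, compared with 8 in WT. From day 4 to 6 it was 1 higher and 3 lower, compared with 8 higher and 0 lower in WT. No share of all genes was computed without the limit. Members other than *Ebf1* and *Insm1* were below 1 FPKM in all KO-labelled culture libraries. The median of the members was 1.99 on the log2 scale from day 2 to 4 and -0.40 from day 4 to 6.

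The NHLH factors had the highest levels of the 10 at day 6 in WT cells, and *Nhlh2* the largest difference between the libraries. *Nhlh1* (NM_010916, chr1:173982423-173987727, minus strand) was at 0.0140, 0.0109, 1.45 and 15.6 FPKM in the WT libraries of ES cells and days 2, 4 and 6. In the KO-labelled libraries it was at 0, 0.102, 0.407 and 0.318 FPKM. Both series were near 0 up to day 2, and only the WT series went past 1 FPKM. *Nhlh2* (NM_178777, chr3:101814068-101819415, plus strand) was at 0.0154, 0, 1.35 and 30.2 FPKM in WT and at 0.00928, 0, 0.357 and 0.471 FPKM in the KO-labelled libraries. Its day 6 WT value was the highest of any member in any culture library. At day 6 the log2 ratio of KO-labelled over WT was -5.62 for *Nhlh1* and -6.00 for *Nhlh2*, which leaves 2.04% and 1.56% of the WT level.

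The 2 MYT1 genes were both near 0 up to day 2. *Myt1* (NM_001171615, chr2:181498037-181562480, plus strand) was at 0.00258, 0.0143, 0.166 and 7.52 FPKM in the 4 WT libraries and at 0.00315, 0, 0.0596 and 0.142 FPKM in the KO-labelled ones. Of the day 6 WT level, 2.21% was present at day 4, a smaller share than for any other member. For *Myt1l* the share was 17.4%. *Myt1l* (NM_001093775, chr12:30213249-30608074, plus strand) was at 0.00404, 0.0256, 0.0368 and 0.212 FPKM in WT and at 0.00496, 0.0432, 0.0414 and 0.0162 FPKM in the KO-labelled libraries. It stayed below 1 FPKM in all 8 culture libraries, so its log2 ratio of -3.71 at day 6 rests on low values. That of *Myt1* was -5.73.

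The EBF genes did not move as a group. *Ebf1* (NM_007897, chr11:44431636-44818674, plus strand) was at 1.19, 0.949, 0.252 and 2.17 FPKM in WT and at 1.19, 0.645, 1.04 and 0.742 FPKM in the KO-labelled libraries. It was equal in both ES cell libraries, higher in the KO-labelled library at day 4 and lower at day 6. *Ebf2* (NM_010095, chr14:67852129-68048604, plus strand) stayed below 1 FPKM in culture, at 0.0796, 0.0379, 0.374 and 0.840 FPKM in WT and at 0.0759, 0.111, 0.322 and 0.303 FPKM in the KO-labelled libraries. *Ebf3* (NM_001113414, chr7:144385354-144506128, minus strand) was at 0.162, 0.0820, 0.960 and 8.35 FPKM in WT and at 0.257, 0.143, 0.563 and 0.641 FPKM in the KO-labelled libraries. Of the 3, only *Ebf3* went well past 1 FPKM in culture. At day 6 the log2 ratios were -1.55 for *Ebf1*, -1.47 for *Ebf2* and -3.70 for *Ebf3*.

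*Insm1* and *Onecut1* peaked or began early. *Insm1* (NM_016889, chr2:146047733-146050754, plus strand) was the highest member in ES cells, at 2.92, 1.98, 6.72 and 11.5 FPKM in WT and at 6.03, 3.88, 2.50 and 1.83 FPKM in the KO-labelled libraries. The 2 series crossed: the KO-labelled library was 2.07-fold higher in ES cells and 6.28-fold lower at day 6. *Onecut1* (NM_008262, chr9:74709728-74737454, plus strand) was at 0.186, 0.0513, 1.55 and 0.998 FPKM in WT, with its highest value at day 4, and at 0.0971, 0.0156, 0.416 and 0.109 FPKM in the KO-labelled libraries. *Onecut2* (NM_194268) was at 0.0523, 0.0714, 0.489 and 1.18 FPKM in WT and at 0.0435, 0.112, 0.588 and 0.185 FPKM in the KO-labelled libraries. Until day 4 the *Onecut2* values of the 2 series stayed within 1.57-fold of each other, and at day 6 they were 6.41-fold apart.

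Set against WT within each pair, few members differed in ES cells and at day 2. In ES cells 2 members were above 1 FPKM, and *Insm1* alone was past 2-fold, higher in the KO-labelled library, against 0.540% of all genes higher and 0.590% lower. At day 2 only *Insm1* was above 1 FPKM and it did not pass 2-fold (log2 ratio 0.97), against 1.19% of genes higher and 1.40% lower. At day 4, 5 members were above 1 FPKM. *Onecut1*, *Insm1*, *Nhlh1* and *Nhlh2* were more than 2-fold lower in the KO-labelled library, with log2 ratios of -1.90, -1.43, -1.83 and -1.92, against 4.46% of all genes lower. With 1 FPKM added to all values 1 member was past 2-fold lower, also 1 where both libraries had to be above 1 FPKM, and 0 were past 4-fold. *Ebf1* was higher, with a log2 ratio of 2.05, against 12.1% of genes higher. The median of the 10 was -1.10 and that of all genes -0.03.

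At day 6 all 10 members were lower in the KO-labelled library. The 7 that were above 1 FPKM were all more than 2-fold lower, against 9.93% of the 13006 genes tested lower and 10.5% higher. The median log2 ratio was -3.45, against 0.00 for all genes. The KO-labelled level was 7.68% of WT for *Ebf3*, 7.64% for *Myt1l*, 10.9% for *Onecut1*, 15.6% for *Onecut2*, 15.9% for *Insm1*, 34.2% for *Ebf1* and 36.0% for *Ebf2*. With a single library on each side, these shares carry no error, and of the 7 only *Insm1* was above 1 FPKM in both libraries. In bulk RNA, fewer cells of a type and less RNA per cell cannot be told apart.

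**Figure D2:**
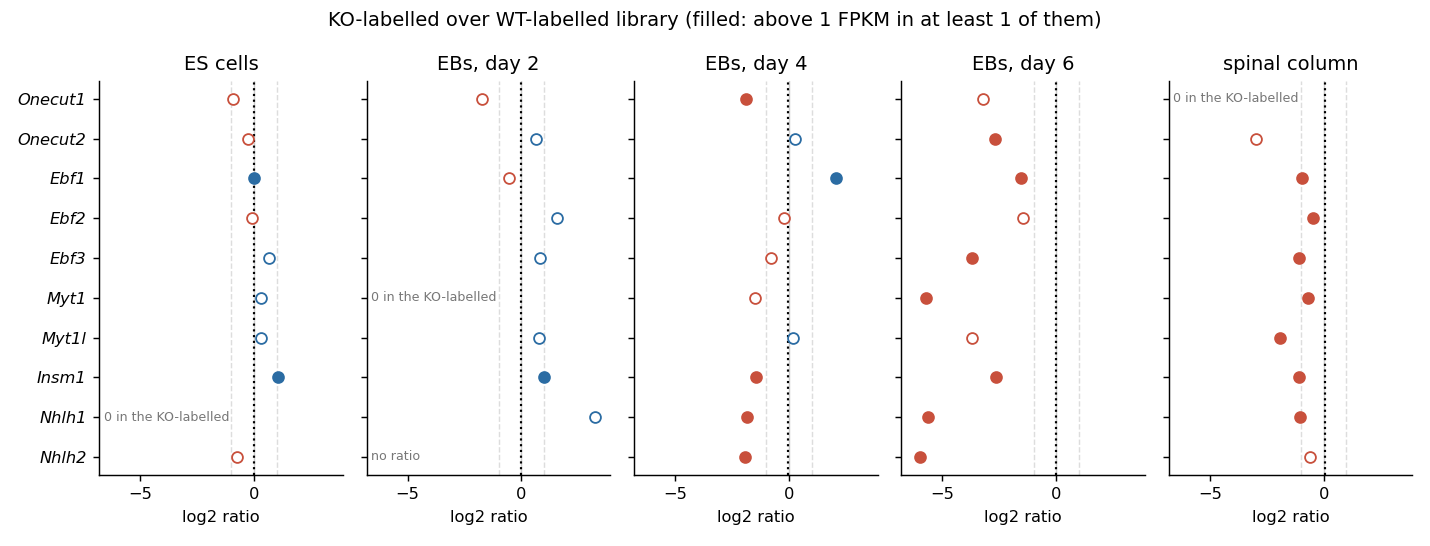
Log2 ratio of the KO-labelled over the WT-labelled library (horizontal axis) for each member in 5 comparisons, with filled points where either library was above 1 FPKM, dashed lines at 2-fold and a dotted line at the median of all genes. At day 6 all 10 points lie left of the dotted line, from -6.00 to -1.47, whereas in ES cells they lie between -0.94 and 1.05 apart from *Nhlh1*, listed at 0 in the KO-labelled library.

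The KO-labelled day 6 library was also set beside WT EBs at day 4, across separate tables. *Onecut1*, *Insm1*, *Nhlh1* and *Nhlh2* were more than 2-fold lower even than in the younger WT library, at 6.99%, 27.2%, 22.0% and 34.9% of it, against 14.9% of all genes lower and 20.7% higher. Of these, only *Insm1* was above 1 FPKM in both libraries. *Onecut1*, *Nhlh1* and *Nhlh2* passed that limit only through the WT library, at 1.55, 1.45 and 1.35 FPKM, so they had to be lower. *Ebf1* stood at 295% of the day 4 WT level, whereas *Myt1* was at 85.6%, *Ebf2* at 80.8%, *Ebf3* at 66.8%, *Myt1l* at 43.9% and *Onecut2* at 37.8%, all 6 below 1 FPKM in both libraries.

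Markers of cell types moved with the members. At day 6 all 12 neuron markers were more than 2-fold lower in the KO-labelled library, with a median log2 ratio of -3.96 and a summed level of 1260 FPKM in WT and 148 FPKM in the KO-labelled library. The ratios ran from -5.54 for *Elavl4*, an RNA-binding protein of neurons, to -1.51 for *Stmn2*, a tubulin-binding protein of growing axons. Of 8 neural progenitor markers 7 were lower (median -2.45, summed level 217 and 117 FPKM). In the other direction, 5 of 6 pluripotency markers were more than 2-fold higher (median 1.57, 360 and 1000 FPKM), as were all 5 markers of simple epithelium (median 2.68, 186 and 1256 FPKM) and 4 of 5 mesenchyme and fat markers (median 1.65, 8.97 and 24.3 FPKM). No marker of these 5 lists was listed at 0 in either library. The part of the cell makeup in the members' ratios was not tested.

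At day 4 the neuron markers differed less than at day 6. They had a median log2 ratio of -0.34, with 2 of 12 lower and 1 higher past 2-fold and summed levels of 86.9 and 83.8 FPKM, while the members' median was -1.10. The median of the members includes genes below 1 FPKM in both libraries, and it shrank when FPKM was added to all values. The progenitor markers had a median of -1.98, with 6 of 8 lower, and the summed level was 422 FPKM in WT and 158 FPKM in the KO-labelled library. All 6 pluripotency markers were more than 2-fold higher (median 2.91, 30.5 and 189 FPKM), as were all 5 of simple epithelium (median 3.10, 76.2 and 408 FPKM).

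Genes that work with the members were described in the same way. Among 9 proneural helix-loop-helix genes, which stand upstream of several members, 4 were more than 2-fold lower at day 4 (median -0.96) and 5 at day 6 (median -2.58). *Neurog2*, a determinant of motor neuron progenitors, had the lowest ratio at both days, going from 15.8 FPKM in WT to 1.62 FPKM at day 4 and from 44.3 to 0.219 FPKM at day 6. Of 12 genes for proteins known to bind the members, such as the E proteins that pair with NHLH factors and the corepressors that bind INSM1, 1 was lower at each day, with medians of -0.07 and -0.43. At day 4 it was *Lmo3*, whose product binds NHLH proteins, at 1.84 and 0.182 FPKM, and at day 6 it was *Zfp521*, which encodes a partner of EBF proteins, at 4.79 and 2.03 FPKM.

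Among 9 genes for repressors of the neuronal programme the median was -0.31 at day 4 and -0.77 at day 6, with 3 lower and 1 higher past 2-fold on each day. The higher one was *Rest*, the silencer of neuronal genes in other tissues, at 4.58 and 10.7 FPKM at day 4 and at 2.63 and 6.54 FPKM at day 6. *Hes5*, an effector of Notch signalling that also counts among the progenitor markers, had the lowest ratio, from 71.0 to 3.61 FPKM at day 4 and from 24.4 to 0.533 FPKM at day 6. Of the 4 paralogs outside the 10 (*Onecut3*, *Ebf4*, *St18* and *Insm2*), all were lower at day 6, and of the 2 above 1 FPKM, *St18* was past 2-fold, at 2.16 and 0.0728 FPKM, while *Ebf4* was at 4.30 and 3.24 FPKM.

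**Figure D3:**
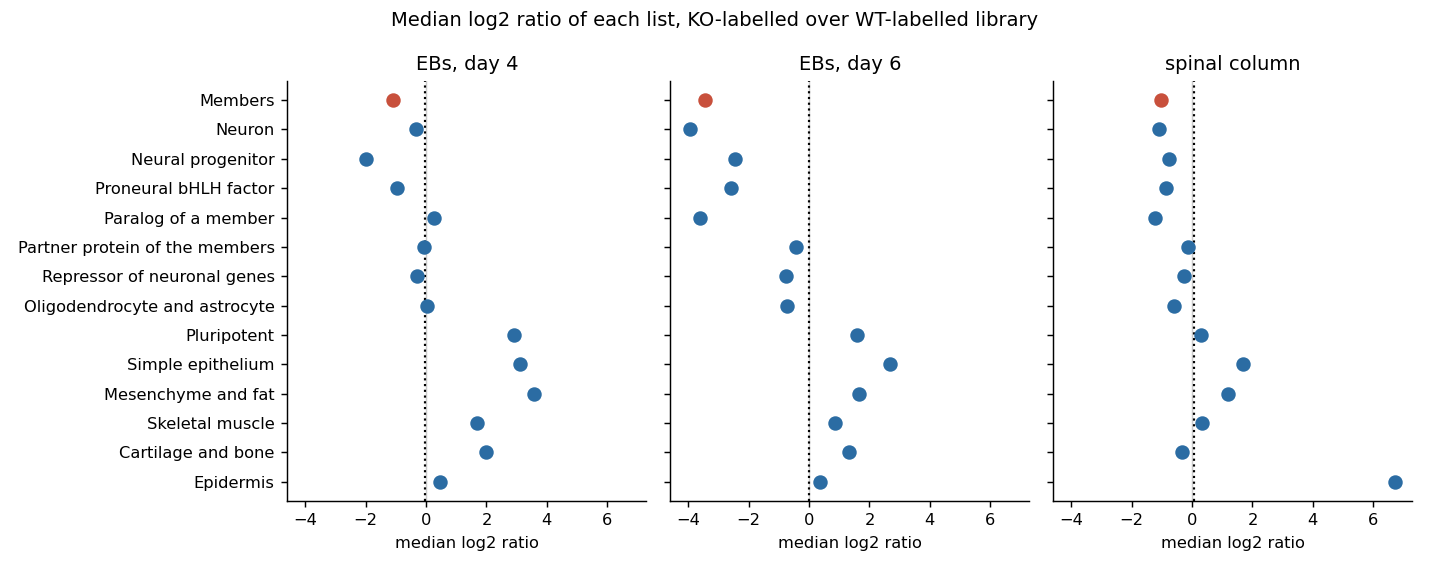
Median log2 ratio of each gene list (horizontal axis), KO-labelled over WT-labelled library, for EBs at days 4 and 6 and newborn spinal column, with the 10 members in red and a dotted line at the median of all genes. At day 6 the members (-3.45) lie beside the neuron markers (-3.96), and at day 4 (-1.10) below them (-0.34). The medians include genes below 1 FPKM in both libraries.

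In profile the members were not all alike. Over the 8 culture libraries, the Pearson correlation of log2(FPKM + 1) with the mean of the other members was 0.994 for *Nhlh1*, 0.992 for *Nhlh2*, 0.990 for *Ebf3*, 0.962 for *Myt1*, 0.953 for *Myt1l*, 0.920 for *Ebf2*, 0.891 for *Onecut2*, 0.744 for *Insm1*, 0.651 for *Onecut1* and 0.514 for *Ebf1*. Outside the 10, the genes most like their mean profile were *Elavl4* (0.994), *Gm7271* (0.994), *Crp* (0.993), *Grm2* (0.993) and *Slc1a2* (0.993). *Elavl4*, for example, was at 25.6 FPKM in WT and at 0.552 FPKM in the KO-labelled library at day 6. Of the genes outside the 10, 343 of 13655 (2.51%) had a correlation above 0.9. They are a description over 8 libraries, of which the WT day 6 library alone had the members above a sum of 13.4 FPKM.

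In newborn tissue the order of the members was another. WT spinal cord had *Ebf3* at 68.4 FPKM, *Ebf1* at 40.0, *Myt1l* at 15.8, *Ebf2* at 7.10, *Nhlh1* at 6.54, *Myt1* at 3.27, *Insm1* at 2.26, *Nhlh2* at 2.01, *Onecut2* at 0.580 and *Onecut1* at 0.563 FPKM. The EBF genes and *Myt1l* thus led in tissue, whereas *Nhlh2*, *Nhlh1* and *Insm1* led in WT EBs at day 6. With 1 library, neighbours in this order cannot be told apart from error. Within the table that pairs spinal cord with WT ES cells, 7 of the 8 members above 1 FPKM were more than 2-fold higher in spinal cord, against 30.4% of all genes higher and 35.7% lower, and the median log2 ratio of the 10 was 6.63, against -0.26. Of the 7, 6 were above 1 FPKM in spinal cord alone, so that they had to differ, and of the 2 members above it in both libraries *Ebf1* was higher. *Insm1* was the exception, its 3.18 FPKM for ES cells exceeding the 2.26 FPKM of spinal cord.

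Between spinal cord and WT EBs at day 6, in separate tables, *Myt1l* was 74.3-fold higher in spinal cord, *Ebf1* 18.4-fold, *Ebf2* 8.45-fold and *Ebf3* 8.20-fold, against 26.1% of all genes more than 2-fold higher. *Nhlh2* was 15.0-fold lower, *Insm1* 5.08-fold, *Nhlh1* 2.38-fold, *Myt1* 2.30-fold and *Onecut2* 2.04-fold, against 34.3% lower. *Myt1l*, at 0.212 FPKM in the EBs, and *Ebf2*, at 0.840 FPKM, passed the limit of 1 FPKM only through spinal cord, so they had to be higher. *Onecut2*, at 0.580 FPKM in spinal cord, passed it only through the EBs. *Myt1l*, which is known to persist in mature neurons, and *Nhlh2*, known from young ones, stood at opposite ends of this comparison. The fold of *Myt1l* rests on its low value in the EBs.

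Spinal column, the cord with the surrounding vertebrae, held less of most members. In WT column *Ebf3* was at 27.4 FPKM, *Ebf1* at 21.8, *Myt1l* at 5.37, *Ebf2* at 4.78, *Nhlh1* at 2.32, *Myt1* at 1.45, *Insm1* at 1.24, *Nhlh2* at 0.744, *Onecut2* at 0.631 and *Onecut1* at 0.214 FPKM. All but *Onecut2* were lower than in WT cord, 5 of the 8 above 1 FPKM past 2-fold, against 16.0% of all genes lower and 17.3% higher. Neuron markers summed to 1340 FPKM in column and 3020 FPKM in cord, and those of cartilage and bone to 1714 and 73.6 FPKM. Of the skeletal muscle markers, *Ckm* (3407 against 14.7 FPKM), *Tnnt3*, *Myh3* and *Myog* were higher in column, while *Acta1* and *Myh8* were listed at 0 there. The 3 EBF genes, which are also expressed outside the nervous system, were at 40.1% (*Ebf3*), 54.5% (*Ebf1*) and 67.4% (*Ebf2*) of their cord level, and the B cell markers summed to 4.13 FPKM in column and 1.62 FPKM in cord.

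In the spinal column library labelled KO all 10 members were lower than in the WT one. *Myt1l* was at 1.44 FPKM, *Ebf3* at 13.1, *Insm1* at 0.577 and *Nhlh1* at 1.14 FPKM, with log2 ratios of -1.90, -1.07, -1.11 and -1.03. These 4, of 7 above 1 FPKM, were past 2-fold, against 8.54% of all genes lower and 9.05% higher. *Ebf1* was at 11.3 FPKM, *Ebf2* at 3.44 and *Myt1* at 0.910 FPKM (log2 ratios -0.95, -0.48 and -0.67). Below 1 FPKM, *Nhlh2* was at 0.487 FPKM, *Onecut2* at 0.0799 FPKM and *Onecut1* was listed at 0. A 0 in these tables need not be a low level, since 13 loci of this table that Cuffdiff marked as too deeply covered are listed at 0 in at least 1 library, but none of the 10 members carried that mark. The median log2 ratio was -1.05, against 0.06 for all genes, and with 0.1 FPKM added to all values 2 of the 4 stayed past 2-fold.

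**Figure D4:**
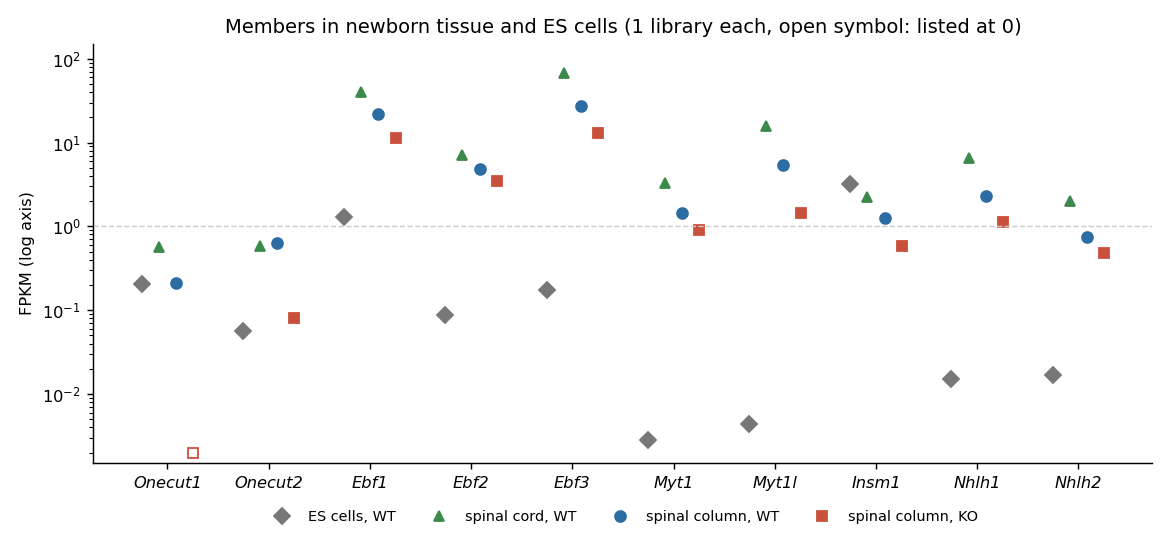
FPKM of each member on a log axis in WT ES cells, WT newborn spinal cord and newborn spinal column labelled WT or KO, 1 library each, with an open symbol for a gene listed at 0 and a dashed line at 1 FPKM. The KO-labelled column square lies below the WT column circle for all 10 members, and *Insm1* is the 1 member whose ES cell diamond (3.18 FPKM) lies above all of its tissue values.

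The markers of the tissue libraries moved too. All 12 neuron markers were lower in KO-labelled column, 8 past 2-fold, with a median log2 ratio of -1.09 beside the -1.05 of the members and a summed level of 1340 FPKM in WT and 751 FPKM in the KO-labelled library. Glial markers had a median of -0.59, with none of 6 past 2-fold. Of 5 mesenchyme and fat markers 3 were more than 2-fold higher, and *Pdgfra* was lower, with a log2 ratio of -0.66 (median 1.17, summed level 266 and 595 FPKM). Of 5 simple epithelium markers 4 were past 2-fold higher (median 1.70, 7.50 and 23.1 FPKM). Epidermis markers, listed after their values were seen, were all more than 2-fold higher (6 of 6, median 6.73), with 15.1 FPKM in WT and 888 FPKM in the KO-labelled library. The part of this difference in the members' ratios was not tested. Of the genes around the members, the proneural list had 1 of 9 lower past 2-fold, and neither the 12 partner genes nor the 9 repressors had any in either direction, with medians of -0.14 and -0.26.

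The ChIP-seq lists held 10415 TAF9B and 8620 POL2 peaks, called by the authors on 1 library each. Within 50 kb of the start of the RefSeq locus, 8 of 10 members had at least 1 TAF9B peak, 15 peaks in all, against 54.2% of 19093 genes and 66.6% of those above 1 FPKM in an EB day 6 library. POL2 peaks were found near 4 members, against 55.9% and 74.7%. No TAF9B peak had its midpoint within 500 bp of such a start, where 18.3% of all genes and 27.1% of the expressed ones had a peak. A POL2 peak lay within 500 bp of 1 member, *Insm1*, against 30.9% and 49.0%. Of the 15 TAF9B peaks 2 overlapped a POL2 peak by at least 1 bp, compared with 33.3% of all TAF9B peaks.

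All 3 EBF genes had TAF9B peaks nearest to their own start. *Ebf1* had 1 peak 7.08 kb before its start, with a MACS score of 261 (above 96.3% of all TAF9B peaks), and 1 that lay 889 bp before the RefSeq start and 72 bp before the nearest GENCODE start, with a score of 221 and an overlapping POL2 peak. *Ebf2* had 4, of which 2 lay 21.4 and 44.4 kb before its start, with scores of 152 and 57.7. *Ebf3* had 1 peak 4.63 kb before the start and 1 in an intron 12.8 kb past it. No POL2 peak lay within 50 kb of *Ebf2* or *Ebf3*. Counting the whole gene, *Ebf1* held 5 TAF9B peaks, *Ebf2* 4 and *Ebf3* 2, all in introns, while *Myt1l* held 6.

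Among the other members, *Onecut2* had 1 TAF9B peak 2445 bp into the gene (score 196), and *Myt1l* had 1 in an intron 2185 bp past its start (score 195), the nearest of 6 in its long gene body. *Myt1l* also had 3 POL2 peaks, 784 bp before the start and 4968 and 6436 bp past it, the last of them 85 bp before a second annotated start. *Insm1* had a POL2 peak 144 bp past its start but its only TAF9B peak within 50 kb stood 37.2 kb away in an intron of *Ralgapa2*. The 2 TAF9B peaks of *Nhlh1* lay 25.2 and 37.9 kb before it, at or in *Copa* and *Ncstn*, and the 2 of *Myt1* 40.9 and 48.3 kb before it, the farther at the start of *Oprl1*. These 5 peaks were nearer to the start of another gene. *Onecut1* and *Nhlh2* had no TAF9B peak within 100 kb.

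Set beside the expression values, the TAF9B peaks whose nearest start is that of a member belonged to *Onecut2*, *Ebf1*, *Ebf2*, *Ebf3* and *Myt1l*, whose log2 ratios at day 6 were -2.68, -1.55, -1.47, -3.70 and -3.71. The members without such a peak, *Nhlh2*, *Myt1*, *Nhlh1*, *Onecut1* and *Insm1*, stood at -6.00, -5.73, -5.62, -3.20 and -2.65. The ranges overlap. The peaks come from another cell line and a later day than the RNA.

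**Figure D5:**
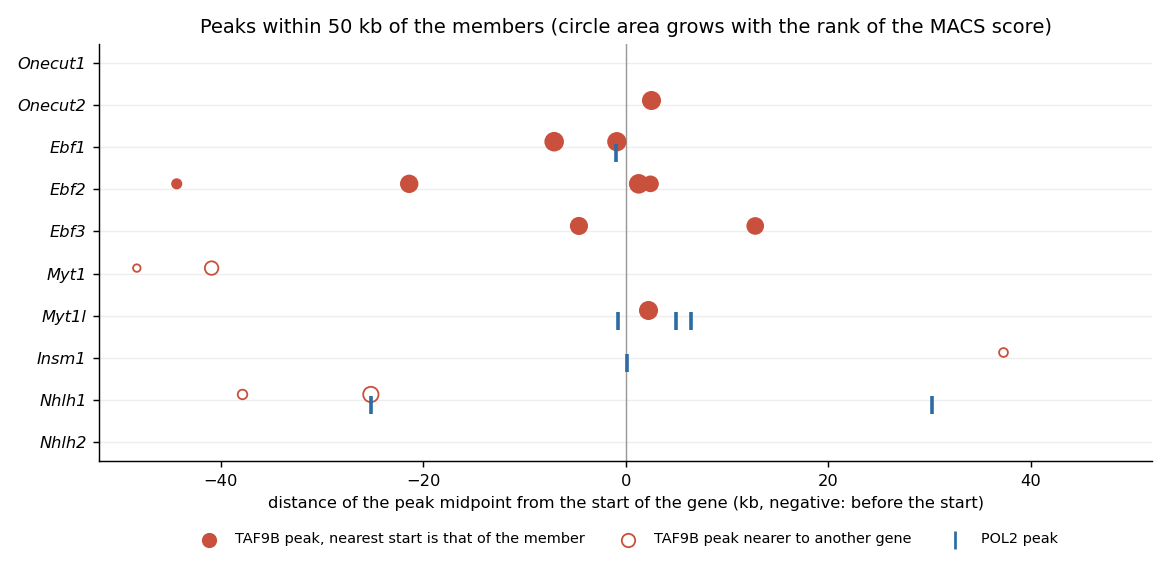
Distance of each peak midpoint from the start of the member in kb (horizontal axis, negative before the start), with circles for TAF9B peaks, whose area grows with the rank of their score, and bars for POL2 peaks. The filled circles, nearest to the member itself, are those of *Onecut2*, *Ebf1*, *Ebf2*, *Ebf3* and *Myt1l*, and the rows of *Onecut1* and *Nhlh2* are empty.

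To show what TAF9B covered near the members, 5 windows of up to 300 bases around peak midpoints are given on the plus strand of mm9, none of them within an annotated exon: the peak before *Ebf1* (chr11:44424409-44424708), the part of the *Ebf1* start peak before its outermost GENCODE start (chr11:44430598-44430818), the peak of *Ebf2* at 21.4 kb before the start (chr14:67830586-67830885), the peak before *Ebf3* (chr7:144510610-144510909) and the intron peak of *Myt1l* (chr12:30215285-30215584). Capitals mark the E-box letters CAGCTG and CAGATG as well as AAGTTT (MYT1), on either strand.
Ebf1, before the gene: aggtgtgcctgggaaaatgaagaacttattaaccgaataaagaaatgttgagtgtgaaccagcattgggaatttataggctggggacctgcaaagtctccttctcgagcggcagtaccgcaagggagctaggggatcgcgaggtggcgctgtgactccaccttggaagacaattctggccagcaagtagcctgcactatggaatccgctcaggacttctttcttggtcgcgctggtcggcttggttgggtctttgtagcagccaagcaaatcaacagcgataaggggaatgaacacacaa
Ebf1, at the start: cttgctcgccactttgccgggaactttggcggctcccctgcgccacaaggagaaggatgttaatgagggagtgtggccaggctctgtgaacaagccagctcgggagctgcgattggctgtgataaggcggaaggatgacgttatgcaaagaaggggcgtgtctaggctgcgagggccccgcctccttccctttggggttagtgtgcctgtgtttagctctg
Ebf2, before the gene: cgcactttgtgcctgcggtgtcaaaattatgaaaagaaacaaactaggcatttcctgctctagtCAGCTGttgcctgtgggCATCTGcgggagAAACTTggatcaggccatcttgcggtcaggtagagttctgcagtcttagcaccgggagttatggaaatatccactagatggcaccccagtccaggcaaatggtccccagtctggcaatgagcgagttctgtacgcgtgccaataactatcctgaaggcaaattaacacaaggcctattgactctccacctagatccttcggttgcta
Ebf3, before the gene: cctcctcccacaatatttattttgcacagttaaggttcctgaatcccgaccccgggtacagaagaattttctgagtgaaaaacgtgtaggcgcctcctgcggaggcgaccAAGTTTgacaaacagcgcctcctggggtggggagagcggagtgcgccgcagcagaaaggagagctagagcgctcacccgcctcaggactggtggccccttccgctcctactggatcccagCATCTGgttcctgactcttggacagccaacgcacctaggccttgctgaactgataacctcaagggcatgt
Myt1l, in the gene: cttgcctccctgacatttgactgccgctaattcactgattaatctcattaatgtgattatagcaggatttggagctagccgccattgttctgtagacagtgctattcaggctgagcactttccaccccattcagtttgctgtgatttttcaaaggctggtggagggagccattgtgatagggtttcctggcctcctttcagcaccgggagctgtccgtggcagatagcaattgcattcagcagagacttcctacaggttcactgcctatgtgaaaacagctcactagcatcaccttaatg
CAGCTG was in 4 of the members' 15 windows of 300 bases and CAGATG in 4, against 22.7% and 18.5% of 10401 such windows over all TAF9B peaks. ATCAAT was in 1, that of *Insm1*, against 7.28%, and AAGTTT in 2, against 9.16%. The EBF letters were in none, against 0.913%. The letters of the 5 motifs do not overlap each other in the windows shown.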

How the data were processed

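The authors isolated poly-A RNA, mapped reads to RefSeq genes with TopHat and deposited FPKM values per gene from Cuffdiff, 2 libraries per table, 11 libraries in 6 tables. The WT ES cell library stands in 2 of them, its values differing by a factor of 1.09. The tables carry no counts, so depth is unknown. Fold change and p-value columns of the authors' own comparisons were not used. ChIP-seq reads were mapped to mm9 with Bowtie and peaks called with MACS, whose score was deposited per peak. An IgG ChIP library was not analysed here. Tool versions are not given in the sources used here.

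From these, log2 ratios of FPKM were computed without a pseudocount. A gene at 0 in 1 library stands below or above all ratios in medians. Genes for which either library compared was above 1 FPKM were held against a limit of 2-fold. The share of all genes past it stands beside the counts of members. Counts of the gene lists and counts under other limits or without the filter have no such share. With 1 library per condition no SD or test within a stage or tissue is possible, for peaks either, and no p-value was computed. The culture pairs were not tested together across the stages. Peak distance runs from the midpoint to the 5′ end of the RefSeq locus in the tables, with the strand from GENCODE vM1, and overlap means at least 1 bp. Sequences were read from the NCBIM37 (mm9) genome, and 1 window is not reported here. Calls and distances were tested on simulated data. The members, gene lists and alternatives were chosen with earlier results of these data known. All 10 members are named, *Taf9b*, the list members with the highest or lowest ratio, and the 5 genes most like the members. Others, such as *St18*, *Zfp521* and the genes at the peaks, were named after their values were seen. The list markers Hbb-b1 and Hba-a1 matched no symbol. Scripts ran under Python 3.11.15, numpy 2.4.6, pandas 2.3.3 and matplotlib 3.10.9.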

Additional observations from a re-analysis of the deposited data

Results flagged for a closer look

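*Ebf1* and *Insm1* are the members whose ratio of the KO-labelled over the WT-labelled library, past 2-fold each time with a library above 1 FPKM, had opposite signs at different stages. The log2 ratio of *Ebf1* was 2.05 at day 4 and -1.55 at day 6. That of *Insm1* was 1.05 in ES cells, -1.43 at day 4 and -2.65 at day 6. Each rests on 1 library per side, so the difference between stages was not tested. With 1 FPKM added to all values the ratio of *Ebf1* at day 4 was 0.71.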

How the results depend on the processing

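No analysis paired across the stages was run. Each group has 1 library, so none could be left out of a comparison. Over 114 recomputed values of the main results, 79 stayed within 1.5-fold and 35 moved further, and of 102 for single members 64 stayed within it. Adding the same FPKM to both libraries cannot change the sign of a ratio, so reversals are not reported. Because many members are near 0, added FPKM shrank the medians most. For *Myt1l* at day 6, added after seeing the data, the log2 ratio was -1.43 with 0.1 and -0.25 with 1 FPKM. At day 6 the median log2 ratio was -2.49 with 0.1 and -1.51 with 1 FPKM added. With 1 FPKM added it was 0.04 at day 2 and -0.23 at day 4, where 1 member was then lower. In the WT steps it was 1.78 and 0.67 (day 2 to 4) and 1.94 and 1.02 (day 4 to 6) with 0.1 and 1 FPKM, in the KO-labelled step from day 2 to 4 it was 1.16 and 0.33, and for spinal cord against ES cells 4.94 and 2.49. In spinal column 2 members instead of 4 were lower under either addition. A limit of 4-fold left 0 members lower at day 4 and 0 in spinal column. Requiring more than 1 FPKM in both libraries left 1 lower at day 4 and 1 at day 6. Added after seeing the data, the same limit left 1 higher from day 2 to 4 in WT, 2 from day 4 to 6 and 1 in spinal cord against ES cells. Without the filter, 1 was lower in ES cells and 2 at day 2, where *Ebf2* and *Nhlh1* were higher, and 2 were higher and 3 lower from WT ES cells to day 2, 8 higher from day 2 to 4 in WT, 7 in the KO-labelled libraries and 1 from day 4 to 6 in the latter, with 3 lower. TAF9B peaks were near 5 members within 10 kb and near 5 when the nearest start had to be that of the member, and POL2 peaks near 7 within 100 kb and near 2 with the higher-scored peaks. At the starts there were 3 peaks of either factor within 1000 bp by midpoint, 2 within 500 bp by any base and 4 with GENCODE starts, an alternative chosen after seeing the data, instead of 1. Centring on the median of all genes moved no median past 1.5-fold.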
